A study of Rattus norvegicus with 24 samples.

Results

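Hcn2 encodes a hyperpolarisation-activated, cyclic nucleotide-gated cation channel of the heart and brain, and its transcript was followed here across the ventricles of rats after monocrotaline and of controls. The gene was chosen by its scores on the right and left ventricle arrays, which it separated most clearly of the 2494 features that could be compared, so that separation is described below without a test. It was 1 of 4126 named genes, was represented by 1 of 4803 probes, and had a value on all 24 arrays. Each 2-colour array held total RNA of 1 ventricle sample against a reference pool, whose make-up the sources used here do not give.

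The arrays comprised 6 CHF, 6 HYP and 6 CON samples of the right ventricle (RV) and 2 CHF, 2 HYP and 2 CON samples of the left ventricle (LV), all at day 14. From the title of the series, CHF and HYP are read as decompensated and compensated hypertrophy after injection of monocrotaline, a plant alkaloid that injures lung vessels and so loads the right ventricle, and CON as the control. The sources used here give neither strain, sex, age and dose nor a treatment of the controls. They also do not say that the samples are separate animals, and the p-values cover the spread between samples whether it is biological or technical.

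HCN channels open when the membrane becomes more negative, carry the inward "funny" current that drives spontaneous depolarisation of pacemaker cells, and open more readily when cyclic AMP binds to them. Hcn4 is the main subunit of the sinoatrial node, whereas Hcn2 is the subunit usually found in working ventricular muscle of adult rodents and is also abundant in neurons. Re-expression of HCN channels in ventricular muscle has been described in hypertrophied and failing hearts. Whole ventricular tissue was measured, in which fewer cells of a type and less RNA per cell cannot be told apart.

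The sources used here do not give the scale of the values. With an SD of 0.87 to 1.01 per array, they were read as scores standardised within each array. They were centred on each array's median, so a score of 0 is that array's median probe. On this reading a difference is in array SDs, not a fold change. Scores were read as sample over pool, but the sources used here do not give the dyes, and array pairs correlated down to -0.53 over all probes, so the direction is not settled. The 5 arrays turned as an alternative (CHF RV 10, CHF RV 14, CHF LV 09, CON LV 21 and CON LV 22) are those with the lower median correlation with the RV arrays in each of the 13 pairs that correlated below -0.3, and results are also given with their sign turned.

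Hcn2 stood near or slightly above the array median in every RV group. In the CHF RV the lowest, median and highest scores were -0.053, 0.306 and 0.538 over 6 arrays. In the HYP RV they were -0.414, 0.306 and 0.662, and in the CON RV -0.043, 0.283 and 0.723. The 3 groups overlapped almost completely, and the only RV arrays below 0 were HYP 06, CHF 10 and CON 22.

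In the left ventricle Hcn2 was far below the array median on every array. The CHF LV scores were -1.26 on array 09 and -1.49 on array 15. The HYP LV scores were -1.81 on array 03 and -1.53 on array 05, and the CON LV scores were -1.86 on array 21 and -1.53 on array 22. The least negative LV score, of CHF 09, lay 0.847 below the lowest RV score, of HYP 06, so the ventricles did not overlap.

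Ordered by mean, the groups ran from CHF RV at 0.305 ± 0.22 (SD, n = 6) through CON RV at 0.3 ± 0.271 (n = 6) and HYP RV at 0.237 ± 0.379 (n = 6) to CHF LV at -1.38 ± 0.162 (n = 2), HYP LV at -1.67 ± 0.192 (n = 2) and CON LV at -1.7 ± 0.233 (n = 2). Neighbours in this order differed by less than the SD of either group, except HYP RV and CHF LV, across the ventricles, and CHF LV and HYP LV, whose difference of 0.295 exceeded both SDs but lay within the error of the fit given below. The order holds for the scores as deposited. Turning the sign on 5 arrays gave means of 0.203 in CHF RV, -0.115 in CHF LV and 1.7 in CON LV and left the other groups as they were, so CON LV came highest. Before centring, Hcn2 lay between -0.513 and 0.93 on the RV arrays and between -2.03 and -1.39 on the LV arrays, again without overlap.

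**Figure D1:**
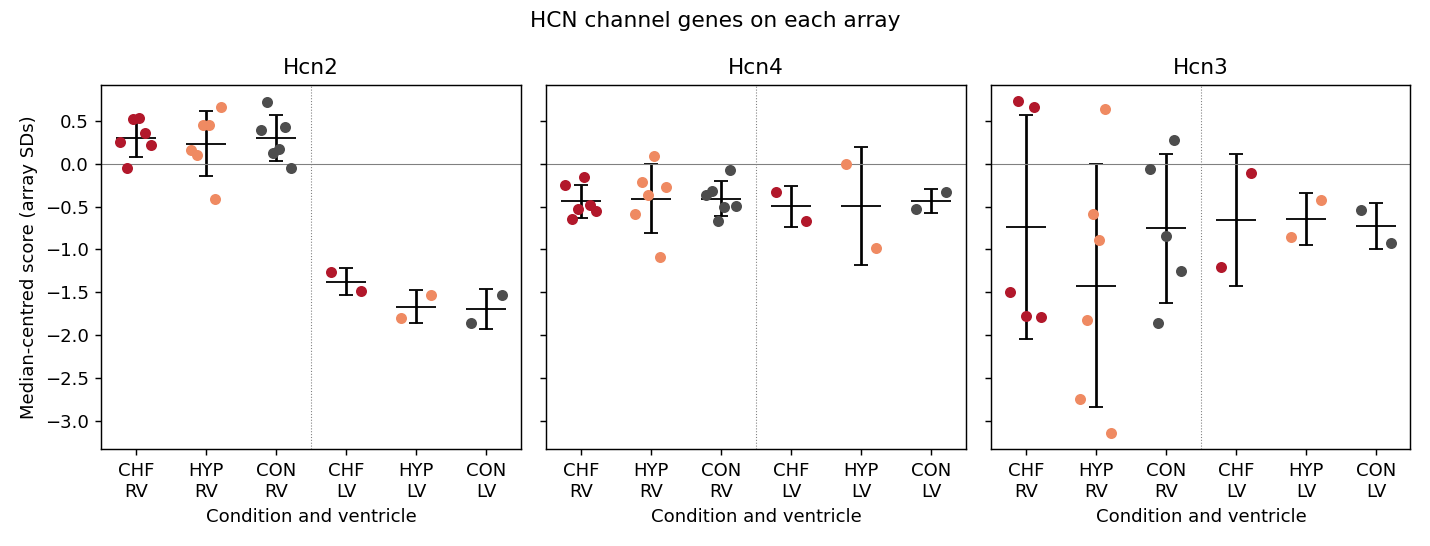
Median-centred scores in array SDs (vertical axis) of Hcn2, Hcn4 and Hcn3 by condition and ventricle (horizontal axis), with 1 point per array and black bars for the mean ± SD. Hcn2 lies between -0.414 and 0.723 on the RV arrays and between -1.86 and -1.26 on the LV arrays, whereas the ventricles overlap for Hcn4 and Hcn3.

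The rank of Hcn2 within its own array, which does not depend on scaling or centring, was also higher in the RV. Hcn2 stood at percentiles 29.4 to 85.4 of the probes measured on an RV array, with a median of 63.9. On the LV arrays it stood at percentiles 0.829 to 3.85, with a median of 2.26, and was thus among the lowest probes of each. The rank follows the sign of the array, and with the sign turned Hcn2 stood at percentiles 96.2 on CHF LV 09, 99.1 on CON LV 21 and 99.2 on CON LV 22.

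Averaged over the 3 conditions, Hcn2 was 1.86 ± 0.165 array SDs (SE of the limma fit) higher in the RV than in the LV. This is the value by which the gene was picked, so no test is attached. It was 1.68 in CHF, 1.91 in HYP and 1.99 in CON. The genes next in the same ordering were Tnni1, the slow skeletal and fetal cardiac troponin I, at 1.59 ± 0.196, and Gpx5, an epididymal glutathione peroxidase, at 1.41 ± 0.19. Of 2494 features, 18.3% had an adjusted p below 0.05 in this contrast, 11.8% higher and 6.54% lower in the RV, and of 1617 features with a value on every array, 0.742% did not overlap between the ventricles.

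Since the ventricles did not overlap for Hcn2, any RV array scored higher than any LV array. The 6 cases in which arrays of both ventricles carry the same number and condition therefore describe only the size of the difference. The RV minus LV difference was 1.51 for CHF 09, 1.71 for CHF 15, 1.91 for HYP 03, 1.99 for HYP 05, 2.29 for CON 21 and 1.49 for CON 22. The labels do not state that a shared number is a shared animal.

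The ventricle difference rests on the sign of the LV arrays. With the sign turned on the 5 arrays named above, Hcn2 read 1.26 in CHF LV 09, 1.86 in CON LV 21 and 1.53 in CON LV 22, while CHF LV 15, HYP LV 03 and HYP LV 05 stayed at -1.49, -1.81 and -1.53. The LV arrays then fell on both sides of the RV arrays, with a mean RV minus LV difference of 0.276, and 0% of features did not overlap between the ventricles. With all 6 LV arrays turned the difference was -1.3, and without the 5 arrays it was 1.89 over CHF and HYP, since no CON LV array was left. Turning the 5 arrays sets some LV arrays against others. With no sign turned, LV array pairs correlated at a median of 0.423 over all probes. None of the 13 pairs below -0.3 joined an LV array to another LV array.

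The LV arrays also differed from the RV arrays in other ways. Scores of CHF LV 15, CON LV 21 and CON LV 22 were deposited with 2 decimals and those of all other arrays with 3, and Hcn2 was between -1.86 and -1.49 on the arrays with 2 decimals and between -1.81 and -1.26 on the LV arrays with 3. Over all probes, the median correlation of array pairs was 0.0651 for an RV with an LV array, 0.262 between RV arrays and 0.423 between LV arrays. The sources used here do not say whether the arrays of both ventricles were run together, so ventricle and any such batch cannot be told apart.

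Marker lists cannot be read as present or absent, since a ratio against a pool has no true 0. The markers of working cardiomyocytes measured on every array (8 of 13) averaged between -2.6 and 1.26 on the RV arrays and between 0.626 and 1.34 on the LV arrays. Atrial and conduction markers (2 of 12, Myl4 and Hcn4) averaged -0.745 to 0.567 in the RV and -0.585 to 0.015 in the LV, and nerve markers (2 of 12, Uchl1 and Syt1) -1.05 to 1.05 in the RV and 0.0265 to 1.35 in the LV. Red cell markers (2 of 7, Hbb and Hbb-b1) averaged -6.3 to -0.194 in the RV and -5.81 to 5.34 in the LV. Glial markers (2 of 8) averaged -0.45 to 0.689 in the RV and -0.63 to 0.266 in the LV, and fibroblast markers (5 of 9) -0.322 to 1.25 in the RV and -0.32 to 0.45 in the LV. Smooth muscle markers (3 of 8) averaged -0.742 to 0.95 in the RV and -0.809 to 0.0433 in the LV, and macrophage markers (2 of 8) -1.31 to 0.587 in the RV and -0.456 to 0.22 in the LV. All these ranges overlapped between the ventricles, and none of the 9 endothelial markers had a value on every array. At a limma adjusted p below 0.05 in the contrast that chose Hcn2, 10 of 42 tested markers (23.8%) differed between the ventricles. Of all 2494 features 18.3% did, so nothing is read from that count. With the sign turned on 5 arrays no feature passed, and the directions below are those with no sign turned. Hbb, Hbb-b1 and Alas2 of red cells, Myl3 and Ckm of cardiomyocytes and Syt1 of nerve were lower in the RV, while Lum and Vim of fibroblasts, Acta2 of smooth muscle and Pmp22 of glia were higher. The part of these cells in the Hcn2 values was not tested.

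Whether Hcn2 changed with the condition was asked first in the loaded right ventricle. The differences between conditions played no part in choosing the gene, but the spread within groups did. The gene was picked for a clear ventricle difference relative to its error, so the intervals for condition here and below may be too narrow. Hcn2 did not differ detectably between the failing, hypertrophied and control right ventricles. CHF minus CON was 0.00517 ± 0.221 array SDs (SE, 95% interval -0.457 to 0.467, n = 6 and 6, limma adjusted p = 0.997). HYP minus CON was -0.0632 ± 0.221 (n = 6 and 6, limma adjusted p = 0.9997, interval -0.525 to 0.399), and CHF minus HYP was 0.0683 ± 0.221 (n = 6 and 6, limma adjusted p = 0.986, interval -0.394 to 0.53). Exact two-sided permutation tests over the 924 arrangements of 12 arrays gave p = 0.974, 0.734 and 0.738 for the same 3 differences, each 0.974 after adjustment. Changes with condition that lie inside these intervals are not excluded with 6 arrays a group. The intervals are not adjusted over the 3199 features tested. Passing the adjusted threshold would take a larger difference than an interval that just leaves out 0.

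In the left ventricle the intervals were wider, with 2 arrays a group. CHF minus CON was 0.32 ± 0.35 (n = 2 and 2, limma adjusted p = 0.9998, interval -0.406 to 1.04). HYP minus CON was 0.025 ± 0.35 (n = 2 and 2, limma adjusted p = 0.996, interval -0.7 to 0.75), and CHF minus HYP was 0.295 ± 0.35 (n = 2 and 2, limma adjusted p = 0.958, interval -0.431 to 1.02). Both CHF LV scores, -1.26 and -1.49, were less negative than those of the CON and HYP LV arrays, the nearest of which were CON 22 and HYP 05 at -1.53. Turning the sign on 5 arrays turned both CON LV arrays but neither HYP LV array. By construction LV HYP minus CON was then -3.37 (limma adjusted p = 0.00558) and LV CHF minus CON -1.81 (limma adjusted p = 0.657). No change with condition is read from these values.

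With no sign turned, the size of the ventricle difference did not vary detectably with the condition either. Between CHF and CON it differed by -0.314 ± 0.404 (limma adjusted p = 1, interval -1.15 to 0.523). Between HYP and CON it differed by -0.0882 ± 0.404 (limma adjusted p = 0.9997, interval -0.926 to 0.749), and between CHF and HYP by -0.226 ± 0.404 (limma adjusted p = 0.999, interval -1.06 to 0.611). When the 5 arrays were turned, the ventricle difference by construction differed by 3.3 between HYP and CON (limma adjusted p = 0.00872) and by 1.71 between CHF and CON (limma adjusted p = 0.238). No change with condition is read from these values either. The pooled SD of Hcn2 within the 6 groups was 0.284 array SDs, against a median of 0.544 over 1617 features with a value on every array. A gene picked for a clear difference relative to its error tends to have a small SD, so this is a description.

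**Figure D2:**
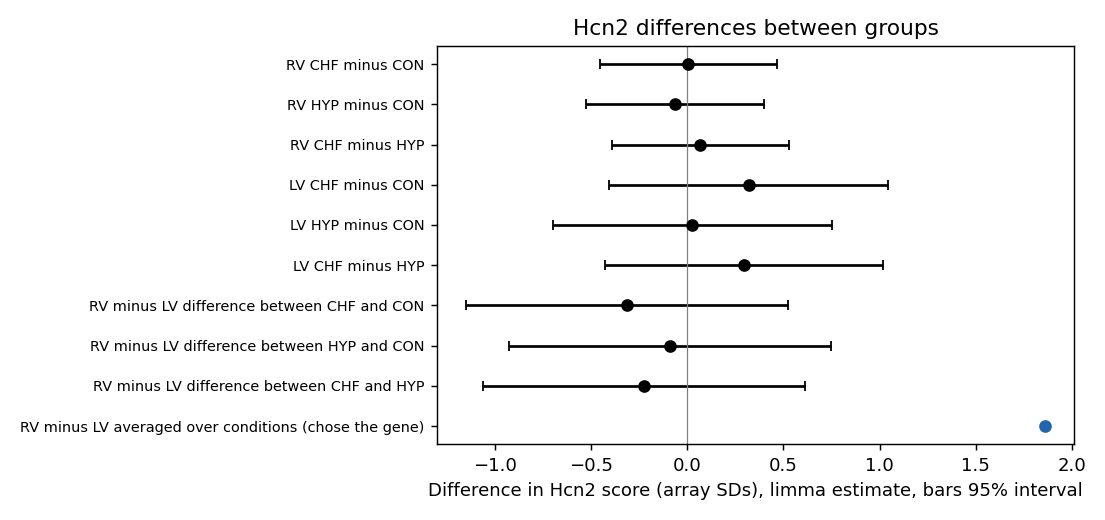
Differences in the Hcn2 score in array SDs (horizontal axis) for each comparison (vertical axis), with the limma estimate as a point and its 95% interval as a bar. The 9 intervals for condition all include 0, and the RV minus LV average of 1.86, which chose the gene, is shown without an interval.

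Hcn4 and Hcn3, also HCN subunits, had 1 probe each. Hcn4, the nodal subunit, averaged -0.415 ± 0.267 (SD, n = 18) on the RV arrays and -0.473 ± 0.334 (n = 6) on the LV arrays. Its ranges, -1.09 to 0.096 in the RV and -0.978 to -0.006 in the LV, overlapped, and its RV minus LV difference was 0.0581 ± 0.174 (SE). For condition in the RV, Hcn4 differed by -0.0298 ± 0.216 in CHF against CON, by -0.000333 ± 0.216 in HYP against CON and by -0.0295 ± 0.216 in CHF against HYP (n = 6 each, limma adjusted p = 0.983, 0.9997 and 0.993).

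Hcn3, a subunit better known from the brain and found at low levels in ventricular muscle, varied much more. It ran from -3.14 to 0.729 over 16 RV arrays with a value and from -1.21 to -0.11 over 6 LV arrays. Its RV minus LV difference was -0.293 ± 0.505 (SE), and CHF minus CON in the RV was 0.0126 ± 0.715 (n = 5 and 5, limma adjusted p = 0.997), HYP minus CON -0.673 ± 0.684 (n = 6 and 5, limma adjusted p = 0.9997) and CHF minus HYP 0.685 ± 0.684 (n = 5 and 6, limma adjusted p = 0.961). The ventricles overlapped in the scores of Hcn4 and Hcn3 and did not in those of Hcn2, a difference between genes that was not tested. The Hcn4 and Hcn3 scores are ratios against the pool and cannot be set against Hcn2 as levels.

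Within the RV groups, arrays with more Hcn2 also had more Hcn4. The deviations of both genes from their group means correlated at a Pearson r of 0.716 and a Spearman rho of 0.699 over 18 RV arrays (permutation p = 0.00096 and 0.00154, adjusted over 3 relations 0.00288 and 0.00462). Without HYP 06 and HYP 05, the arrays farthest out for Hcn4, r was 0.541 (n = 16, permutation p = 0.0317). Without CHF arrays 10 and 14 r was 0.706, and with the sign of these arrays turned it was 0.0924.

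A component common to many genes moved with both. Taken over 1655 features without Hcn2, the leading component of the RV arrays' deviations from their group means held 43.3% of their variance. The sign of a component is arbitrary and was set here so that the muscle actin gene Acta1 correlated positively with it. The component correlated with Hcn2 at r = -0.513 and rho = -0.618 (n = 18, permutation p = 0.0286 and 0.0076, adjusted 0.0429 and 0.0114), with r = -0.543 without CHF 14 and CHF 10. With Hcn4 it correlated at -0.534 as a description. Hcn3 went the other way, at r = -0.502 and rho = -0.488 with Hcn2 (n = 16, permutation p = 0.0476 and 0.0565, adjusted 0.0476 and 0.0565). Without HYP 06 and CHF 10 r was -0.164, so the relation in the centred scores rests on these arrays. With both arrays kept, r was -0.557 with the sign of CHF 10 and CHF 14 turned and -0.632 with deposited values. Hcn3 correlated with the component at r = 0.873 (n = 16), as a description.

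**Figure D3:**
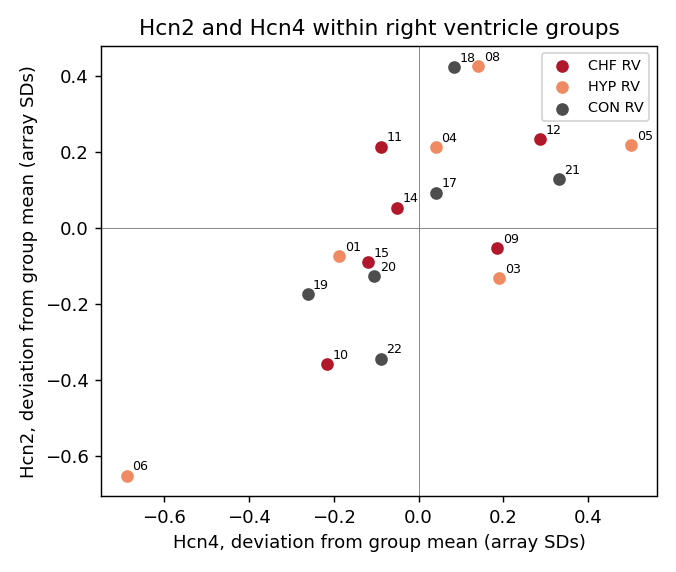
Deviation of Hcn4 (horizontal axis) and Hcn2 (vertical axis) from their group means in array SDs for the 18 RV arrays, coloured by condition and labelled with the array number. The points run from low to high together (r = 0.716), with HYP 06 lowest for both genes.

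The genes whose scores were most like those of Hcn2 over all 24 arrays were named by the highest Pearson r among 2269 named genes with values on at least 20 arrays. The points share an array, its scaling and the split between ventricles, so the values are descriptions. Tnni1 stood at r = 0.899, averaging 0.621 ± 0.416 (SD, n = 18) in the RV and -0.968 ± 0.222 (n = 6) in the LV. Akr7a3, an aldo-keto reductase that detoxifies aldehydes, stood at 0.891, with -0.333 ± 0.156 in the RV and -0.848 ± 0.169 in the LV.

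Msn, the membrane-cytoskeleton linker moesin, stood at r = 0.858 (0.395 ± 0.278 in the RV and -0.642 ± 0.133 in the LV). Npr2, the receptor of C-type natriuretic peptide, stood at 0.855 (-0.0694 ± 0.341 in the RV and -0.906 ± 0.124 in the LV), and Gpx5 at 0.853 (0.89 ± 0.427 in the RV and -0.524 ± 0.351 in the LV). Ranges in the 2 ventricles did not overlap for Tnni1, Msn, Npr2 and Gpx5, and overlapped for Akr7a3. Of 1617 features with a value on every array 0.742% did not overlap, and 0% with the sign turned on 5 arrays. The genes were picked for likeness to Hcn2 over arrays split by ventricle, so nothing is read from this. Over the RV arrays alone r was lower for all 5, at 0.648 for Akr7a3, 0.608 for Npr2, 0.415 for Gpx5, 0.358 for Tnni1 and 0.22 for Msn. With the sign turned on 5 arrays r was 0.858 for Tnni1, 0.848 for Npr2, 0.795 for Msn, 0.764 for Akr7a3 and 0.568 for Gpx5. Turning an array turns both genes on it and leaves the product of their scores unchanged. An r that stays high therefore does not bear on the sign.

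**Figure D4:**
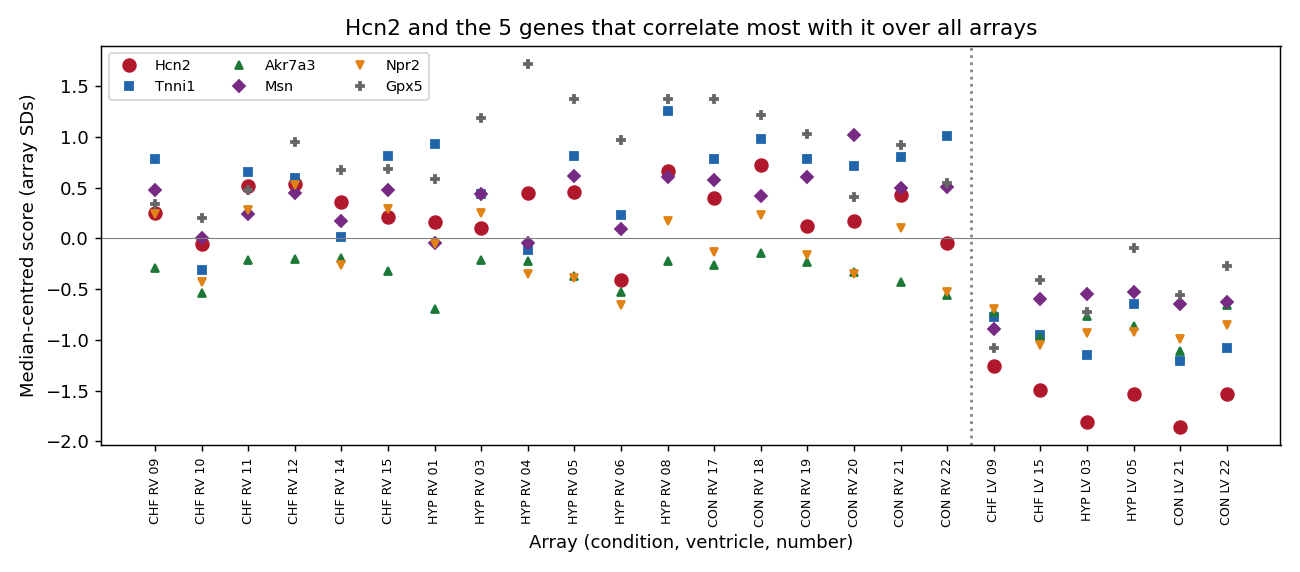
Median-centred scores in array SDs (vertical axis) of Hcn2 and the 5 genes that correlate most with it, on each of 24 arrays (horizontal axis), with 18 RV arrays left of the dotted line and 6 LV arrays right of it. All 6 genes are lower on average in the LV than in the RV, and heights are not comparable between genes.

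The most opposite genes over the 24 arrays were Slc5a2, the renal sodium-glucose cotransporter, at r = -0.777, Slc25a11, the mitochondrial oxoglutarate carrier, at -0.773, and Pygm, muscle glycogen phosphorylase, at -0.752. Slc5a2 averaged -1.45 ± 1.39 in the RV and 1.6 ± 0.794 in the LV, Slc25a11 -0.764 ± 0.481 in the RV and 0.245 ± 0.149 in the LV, and Pygm -0.331 ± 0.591 in the RV and 0.899 ± 0.453 in the LV (SD, n = 18 and 6). Over the RV arrays alone r was -0.379 for Slc5a2, -0.367 for Slc25a11 and -0.358 for Pygm. With the sign turned on 5 arrays it was -0.671 for Slc5a2, -0.404 for Slc25a11 and -0.714 for Pygm, which for the same reason does not bear on the sign.

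Within the right ventricle, other genes came closest. Among 2239 named genes with values on at least 15 RV arrays, the highest were Sts, steroid sulfatase, at r = 0.76 (n = 17), Slc22a4, an organic cation and ergothioneine transporter, at 0.745 (n = 17), and Gja3, a gap junction connexin best known from the lens, at 0.738 (n = 18). Psmd10, the proteasome-associated protein gankyrin, followed at 0.73 (n = 17) and Vtn, the adhesive plasma protein vitronectin, at 0.73 (n = 18). Over all arrays, r was 0.121 for Sts, 0.436 for Slc22a4, 0.638 for Gja3, 0.597 for Psmd10 and 0.0301 for Vtn, and the scores of these 5 genes overlapped between the ventricles. No gene reached r = 0.8 over the RV arrays, and 11 did over all arrays.

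Genes that work with Hcn2 were read from 8 lists of channels, cyclic AMP signalling, calcium cycling and gap junctions, with 189 genes besides Hcn2, of which 146 had a probe and 107 could be tested in the RV. In CHF against CON, 1 of 107 passed the limma test, or 0.935%, against 0.907% of all 3199 features (0.875% higher and 0.0313% lower in CHF). The median difference was -0.0199 over these genes and -0.0992 over all features. In HYP against CON, 1 of 107 passed, against 0.281% of all features, with medians of -0.0567 and -0.0456. At an unadjusted limma p below 0.05 the counts were 11 of 107 for CHF against CON and 4 of 107 for HYP against CON, where 8.5% and 4.1% of all features lay below it.

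The gene that passed both times was Cav3, the muscle caveolin, a scaffold of membrane microdomains that has been reported to bind HCN channels. It averaged 0.726 in the CHF RV, 0.0223 in the HYP RV and -1.96 in the CON RV. CHF minus CON was 2.69 ± 0.405 (SE, n = 6 and 6, limma adjusted p = 0.000825) and HYP minus CON 1.98 ± 0.405 (n = 6 and 6, limma adjusted p = 0.0418). The first call held in all 18 fits that left out 1 RV array (2.41 to 2.89) and ended with the sign turned, at 1.99 (adjusted p = 0.0894). The second held without HYP 03, HYP 05, HYP 08 or CON 20, was lost in the other 14 fits (1.71 to 2.11), and had an adjusted p of 0.282 with the sign turned, 0.215 with the 2 groups alone and 0.0653 without CHF 10 and 14. Both contrasts share the CON arrays, and the lists that hold Cav3 were chosen with earlier results of these data known.

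In CHF against HYP of the RV none of the 107 members passed, as no feature did (0%), with 5 of 107 at an unadjusted limma p below 0.05, as were 4.94% of all features. The smallest p belonged to Adcy5, a cardiac adenylyl cyclase that makes cyclic AMP, at -0.671 ± 0.277 (n = 6 and 6, limma adjusted p = 0.938), and to Gnb1, a G protein beta subunit, at 0.621 ± 0.269 (n = 6 and 5, limma adjusted p = 0.938). In the LV 82 members could be tested, and none passed in any of the 3 comparisons, as no feature did (0%). At the unadjusted limma p there were 2 members for CHF minus CON, 1 for CHF minus HYP and 1 for HYP minus CON, and 0.882%, 3.01% and 1.84% of all features.

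The smallest LV p values belonged to 4 genes. Gnb1 differed by 1.5 ± 0.56 in CHF against CON and by 1.87 ± 0.56 in CHF against HYP (n = 2 and 2, limma adjusted p = 0.9998 and 0.891). Kcnj1, an inward rectifier potassium channel best known from the kidney, differed by -0.878 ± 0.359 in CHF against CON and by -0.888 ± 0.359 in HYP against CON (n = 2 and 2, limma adjusted p = 0.9998 and 0.996). Gjb1, a gap junction connexin of liver and Schwann cells, differed by 1.27 ± 0.81 in HYP against CON, and Cacna2d1, an accessory subunit of voltage-gated calcium channels, by -1.06 ± 0.58 in CHF against HYP (n = 2 and 2, limma adjusted p = 0.996 and 0.958).

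The difference between ventricles in condition effects called no list member and no feature (0%) with limma, with 3 members at an unadjusted p below 0.05 for CHF and CON, 3 for HYP and CON and 0 for CHF and HYP. The shares of all features at that p were 2.73%, 2.49% and 1.36%. Cav3 had the smallest p for CHF and CON and for HYP and CON, at 2.52 ± 0.848 and 2.93 ± 0.848 (limma adjusted p = 1 and 0.428). Second were Ptpra, a receptor tyrosine phosphatase that acts on HCN channels, at -2.54 ± 1.1, and Kcnj1 at 1.18 ± 0.414 (limma adjusted p = 1 and 0.9997). For CHF and HYP, Gnb1 at -1.24 ± 0.654 and Adcy5 at -0.896 ± 0.551 came first (limma adjusted p = 0.999 for both).

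In the contrast that chose Hcn2, 11 of 82 list members passed the same threshold, 8 higher and 3 lower in the RV, or 13.4% against the 18.3% of all features given above, and nothing is read from that count. With the sign turned on 5 arrays no feature passed, and the directions below are again those with no sign turned. Among genes of the cyclic AMP pathway, Adrb1, the main cardiac beta-adrenoceptor, averaged 0.448 ± 0.776 in the RV and -0.623 ± 0.448 in the LV (SD, n = 18 and 6). Gnai3, an inhibitory G protein subunit, averaged 0.298 ± 0.699 in the RV and -0.944 ± 0.606 in the LV, and Gnas, the stimulatory subunit, -0.106 ± 1.12 in the RV and 1.66 ± 0.439 in the LV. Gnb1 and Adra1b, an alpha-adrenoceptor, also averaged higher in the RV, Gnb1 at 0.43 in the RV and -0.369 in the LV and Adra1b at -0.488 in the RV and -1.5 in the LV.

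Among channel and calcium genes, Cacnb2, an accessory subunit of the cardiac calcium channel, averaged 0.126 ± 0.604 in the RV and -0.91 ± 0.767 in the LV. Fkbp1b, which stabilises the ryanodine receptor, averaged -0.0857 ± 0.223 in the RV and -0.652 ± 0.219 in the LV. Camk2d, the main cardiac calmodulin kinase, averaged -0.907 ± 1.45 in the RV and 1.46 ± 0.912 in the LV, and Casq2, the calcium store protein calsequestrin, -1.75 ± 2.54 in the RV (n = 16) and 1.27 ± 0.46 in the LV. Calm2, a calmodulin gene, and Gjb6, a connexin, also differed, Calm2 at 0.799 in the RV and -0.046 in the LV and Gjb6 at 0.63 in the RV and -0.508 in the LV. None of the 24 tested potassium channel genes was among the 11.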

How the data were processed

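The deposited value table gives, for each probe and array, a score and the sources used here do not give the scale, background correction, dyes or normalization by which the authors made it. An array held 2162 to 3658 values. The scores carry no signal over background, so how far a probe stood above background cannot be judged. Array medians lay between -0.2 and 0.217, further apart than 0.2, so each array was centred on its median. limma, planned for log ratios or scores, was applied to these scores.

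Probes were named through the platform annotation. A single gene symbol was given for 4278 of 4803 probes, several for 4 and none for 521, and 4257 matched the RefSeq gene table of GRCr8, which changed 0 symbols. Probes of a gene were averaged.

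Differences were fitted with limma 3.58.1 in R 4.3.3 over all features with at least 2 values a group, on 18 RV arrays, or on all 24 arrays in 6 groups for comparisons with the LV, with Benjamini-Hochberg adjustment over all features and a threshold of 0.05. LV groups were assumed to vary like RV groups. The fit was tested on simulated data.

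Hcn2 and the lists were chosen with earlier results of these data known. Named besides Hcn2 are the measured HCN genes, list members past the threshold (or the 2 with the smallest p in a comparison without any), and the genes with the 5 highest correlations (all arrays, RV arrays) and 3 lowest (all arrays). Alternatives were deposited values, scaling by the MAD, turned signs, arrayWeights, robust eBayes, complete features, a replicate block, array subsets, the array component and leaving out each array.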

Additional observations from a re-analysis of the deposited data

How the results depend on the processing

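The small differences of Hcn2 between conditions turned sign in several settings, and the RV minus LV difference was positive in all but that with all 6 LV arrays turned. With the sign turned on 5 arrays, Hcn2 differed by -0.0968 in CHF against CON and -0.0337 in CHF against HYP of the RV. By construction of that setting, which turns both CON LV arrays and 1 CHF LV array, LV CHF minus CON became -1.81 (adjusted p = 0.657) and LV HYP minus CON -3.37 (limma adjusted p = 0.00558), the ventricle difference changed by 1.71 between CHF and CON (adjusted p = 0.238) and by 3.3 between HYP and CON (adjusted p = 0.00872), and the RV minus LV average was 0.276. That average was -1.3 with all 6 LV arrays turned, 2.21 with MAD scaling and 2.02 with deposited values. With arrayWeights RV CHF minus CON was -0.00212, and with only the RV arrays that have an LV array of the same number the ventricle difference between HYP and CON was 0.0625. The cause of these 2 small sign changes was not tested.

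Leaving out 1 array gave -0.0634 to 0.0897 for RV CHF minus CON, -0.148 to 0.067 for RV HYP minus CON, -0.0618 to 0.153 for RV CHF minus HYP, 0.155 to 0.485 for LV CHF minus CON, 0.159 to 0.431 for LV CHF minus HYP, -0.479 to -0.149 for the ventricle difference between CHF and CON and -0.362 to -0.0902 for that between CHF and HYP, -0.14 to 0.19 for LV HYP minus CON, -0.253 to 0.0768 for the ventricle difference between HYP and CON, and 1.81 to 1.92 for the RV minus LV average, with no call of Hcn2 for condition. The count of list members called in RV CHF against CON was 0 with turned signs, 2 with the array component as a covariate (Cav3 and Adcy8) and 1 to 2 without 1 array, where Cacna2d1 was added without CON RV 21.

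Same-numbered arrays did not deviate together throughout (r = -0.297 to 0.416 over 6 pairs, and 3 of 6 LV arrays correlated best with their own number), so the numbers were not taken as pairs. With the replicate block LV HYP minus CON was -0.00984 and the RV minus LV average 1.85, and that contrast called 744 features, against 457.

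The counts of all features called were less stable. RV against LV called 457 (64.3% higher in the RV), 563 with deposited values (75.5% higher), 1079 with arrayWeights, 962 with the array component, 832 with same-numbered arrays, 871 with all LV arrays turned (37.3% higher), 47 without the 5 arrays, 0 with them turned and 140 to 683 without 1 array. RV CHF against CON called 29, but 9 with turned signs, 49 with the component and 18 without CHF 10 and 14 and 16 to 38 without 1 array, and RV HYP against CON called 9, but 1 with turned signs and 0 with the 2 groups alone and 3 to 9 without 1 array. Deposited values moved the median RV minus LV difference of all features to 0.197, against 0.0344 after centring.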
